A study of Mus musculus with 10 samples.

Results

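The genes described here are 38 tissue-restricted self-antigen genes, chosen by name from 21887 mouse protein-coding genes as genes of proteins of peripheral tissues. Each was assigned to 1 of 9 tissues, which does not mean that its protein is made there alone. Endocrine pancreas gave 5 of them, exocrine pancreas 1, thyroid 1, eye 2, brain 4, mammary gland 6, liver 11, gut 5 and pituitary 3. Their chromatin was read in ATAC-seq libraries, in which a transposase cuts open DNA, of thymic epithelial cells (TEC) sorted from C57BL/6 mice of wild-type genotype. The 10 libraries form 5 groups of 2. These are mTEC4, mTEC1 and mTEC2, all from day 6, and TEC of embryonic days 15 (E15) and 17 (E17). No group carried a mutation, a transgene or a treatment. What the names mTEC4, mTEC1 and mTEC2 stand for is not stated, and no fraction is named for E15 or E17, so age and sorted fraction cannot be told apart. The labels do not say that replicates came from separate animals, so each p-value measures only the spread between these libraries.

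Medullary TEC transcribe many genes that are otherwise confined to single organs, and developing T cells that bind the resulting self-peptides are deleted or turned into regulatory T cells. Aire, a nuclear protein that acts at genes in little accessible chromatin, and Fezf2, a zinc-finger transcription factor, each control a large set of these genes. Any one such gene is transcribed in a small share of medullary cells at a time. In libraries of pooled cells, a site open in fewer cells and a site less open in each cell cannot be told apart.

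The data are lists of called peaks, 1 per library, holding 40858 to 101917 peaks in the day 6 libraries and 86237 to 151646 in the embryonic ones. Strong peaks, those whose −log10 q reached 5, were 6.33% to 14.3% of the day 6 lists and 41.7% to 48.8% of the embryonic lists. The shortest list was that of mTEC2 replicate 2 and the longest that of E17 replicate 2. Read depth is unknown, and where no peak is listed the site may still be open below the calling threshold. Of 10 TEC markers, among them Foxn1, Epcam and Krt8, 5 to 9 had a called peak at their start in the day 6 libraries and all 10 did in the embryonic ones. Of all genes, 44.5% to 61.4% had one in day 6 libraries and 64.8% to 69.4% in embryonic ones. In mTEC4 replicate 2 the marker share of 50% lay below the 55.7% of all genes. In mTEC4 replicate 1 it was 50% against 44.5%, and in the other day 6 libraries 60% to 90% against 47.2% to 61.4%.

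Each gene was given the number of called peaks in its span with 10 kb on each side, its window. Since longer lists and longer genes collect more peaks, the count was also ranked within each library among the 400 genes nearest in span length, as a percentile from 0 to 100 with ties shared equally between both sides. A peak at the gene start is one within 1 kb of it, or within 1 kb of either end of the span for the 7 genes named below as having no promoter entry. Counts and percentiles are given in the order mTEC4, mTEC1, mTEC2, E15, E17, replicate 1 before replicate 2.

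The promoters of these genes differ in their letters from the average promoter. Of the 38 genes, 31 have an entry in the RefSeq promoter table (GRCm38.p6, 250 bases before to 50 after the gene start), and 7, Ins2, Tg, Mbp, Csn3, Ttr, Tff3 and Gh, have none. In the 8 promoters printed here, 5′ to 3′ on the gene's own strand, capitals mark the CpG dinucleotides. Gad1 and Gad2 are shown because their starts carried a peak in every embryonic library and in no day 6 library, and Sst because its promoter is also rich in CpG. Fgg, Crp and Reg3g are shown because a called region overlaps the printed bases, or, for Crp, their upstream edge. Alb and Csn1s1 are shown as starts with no called peak in any library.
Gad2 (chr2:22622077-22622376, plus strand): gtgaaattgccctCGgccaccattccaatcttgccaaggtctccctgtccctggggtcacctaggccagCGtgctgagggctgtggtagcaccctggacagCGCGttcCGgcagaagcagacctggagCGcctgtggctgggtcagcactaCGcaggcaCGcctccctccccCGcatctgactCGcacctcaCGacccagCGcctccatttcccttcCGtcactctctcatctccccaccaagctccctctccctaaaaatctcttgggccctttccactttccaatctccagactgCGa
Gad1 (chr2:70561879-70562178, plus strand): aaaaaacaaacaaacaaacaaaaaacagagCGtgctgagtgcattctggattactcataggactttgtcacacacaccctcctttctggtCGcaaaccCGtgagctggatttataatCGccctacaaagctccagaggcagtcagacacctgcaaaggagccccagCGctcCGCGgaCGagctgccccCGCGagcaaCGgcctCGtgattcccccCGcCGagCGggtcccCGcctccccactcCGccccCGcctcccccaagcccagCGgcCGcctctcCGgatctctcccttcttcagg
Sst (chr16:23890795-23891094, minus strand): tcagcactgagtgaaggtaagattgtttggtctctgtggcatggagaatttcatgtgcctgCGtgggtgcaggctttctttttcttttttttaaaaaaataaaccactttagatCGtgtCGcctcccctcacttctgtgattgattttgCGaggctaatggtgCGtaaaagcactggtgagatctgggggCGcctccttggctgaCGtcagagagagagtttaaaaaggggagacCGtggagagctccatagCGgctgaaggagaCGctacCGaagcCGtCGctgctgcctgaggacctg
Fgg (chr3:83007474-83007773, plus strand): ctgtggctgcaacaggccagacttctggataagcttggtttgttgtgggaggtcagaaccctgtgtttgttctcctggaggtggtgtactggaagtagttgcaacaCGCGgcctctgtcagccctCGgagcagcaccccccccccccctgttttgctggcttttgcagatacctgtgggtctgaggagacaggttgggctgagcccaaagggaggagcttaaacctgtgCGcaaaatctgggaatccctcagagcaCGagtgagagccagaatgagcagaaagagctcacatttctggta
Crp (chr1:172697806-172698105, plus strand): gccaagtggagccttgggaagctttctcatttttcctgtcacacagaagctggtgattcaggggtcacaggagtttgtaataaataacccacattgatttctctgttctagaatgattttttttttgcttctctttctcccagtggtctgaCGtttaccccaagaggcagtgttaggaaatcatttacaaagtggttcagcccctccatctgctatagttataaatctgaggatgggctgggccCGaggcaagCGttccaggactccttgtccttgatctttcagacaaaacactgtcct
Reg3g (chr6:78468825-78469124, minus strand): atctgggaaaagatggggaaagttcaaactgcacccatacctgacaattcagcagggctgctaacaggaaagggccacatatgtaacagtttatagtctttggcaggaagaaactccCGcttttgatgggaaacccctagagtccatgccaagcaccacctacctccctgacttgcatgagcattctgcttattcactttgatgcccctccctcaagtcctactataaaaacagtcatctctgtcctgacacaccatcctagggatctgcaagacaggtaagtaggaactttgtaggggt
Alb (chr5:90460620-90460919, plus strand): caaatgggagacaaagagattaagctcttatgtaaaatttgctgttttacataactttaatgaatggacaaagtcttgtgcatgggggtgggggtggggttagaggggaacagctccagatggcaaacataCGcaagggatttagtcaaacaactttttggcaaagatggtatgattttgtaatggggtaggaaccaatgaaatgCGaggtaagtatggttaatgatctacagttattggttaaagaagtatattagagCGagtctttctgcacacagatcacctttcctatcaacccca
Csn1s1 (chr5:87665958-87666257, plus strand): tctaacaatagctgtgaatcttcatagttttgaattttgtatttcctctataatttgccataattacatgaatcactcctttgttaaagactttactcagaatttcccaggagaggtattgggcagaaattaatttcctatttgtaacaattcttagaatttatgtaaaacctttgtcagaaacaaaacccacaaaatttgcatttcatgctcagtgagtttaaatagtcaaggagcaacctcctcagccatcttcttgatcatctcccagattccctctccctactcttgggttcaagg

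Gad1 holds 21 CpG in these 300 bases, Gad2 14 and Sst 13, against 5 in Fgg, 3 in Crp, 3 in Alb, 1 in Reg3g and 0 in Csn1s1. Over the 31 promoters the median CpG observed over expected was 0.203, and over all 17492 promoters of the table it was 0.577. The median GC content was 48.3% in these promoters and 56.3% in all. In 26 of the 31 the CpG ratio was under 0.4, a class that holds 39.1% of all promoters. The TATA box letters TATAAA, searched on both strands as were all motifs, were found in 12 of the 31 (38.7%), among them Crp and Reg3g, and in 13.3% of all promoters. The GC box letters GGGCGG were found in 2 of them (6.45%), Gad1 and Pomc, and in 46.3% of all. GACGC, the core of the FOXN1 site, was in 3 (9.68%), Apoh, Cela1 and Sst, and in 33.5% of all. Both GGGCGG and GACGC contain a CpG, and no share among promoters of like CpG content was computed. GTTAAT, the core letters of the site of the liver factor HNF1, was in 7 (22.6%) and in 6.29% of all. These were Alb, Afp, Fabp1, Fga and Fgb of the liver, Csn1s2a of the mammary gland and Iapp of the islet. The liver promoters of Apoa1, Apob, Apoh, Crp and Fgg had no match. TATAAA and GTTAAT are rich in A and T, and no share among promoters of like GC content was computed. Matches of all motifs were counted at any place in the 300 bases. CCAAT was in 10 (32.3%) against 39.0% of all, the AP-1 letters TGANTCA in 3 (9.68%) against 7.08%, and the cAMP-response letters TGACGT in 3 (9.68%) against 8.76%. In Sst the last of these occur on both strands, with first bases at -48 and -46 from the start. The pair in Sst share bases, TGANTCA reads the same on both strands, and matches of different motifs did not overlap in these promoters. A match is a description and not a binding site.

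The windows of the 38 genes held fewer called peaks than expected from genes of like length in every library. They held 41, 47, 47, 56, 99 and 34 peaks in the day 6 libraries and 91, 79, 80 and 131 in the embryonic libraries. These sums were 0.708, 0.631, 0.683, 0.720, 0.962 and 0.627 times the sum expected from genes of like length in the day 6 libraries, and 0.754, 0.675, 0.752 and 0.858 times in the embryonic ones. All 10 ratios lie below 1, and mTEC2 replicate 1 comes nearest to it. The median over the 38 genes of the mean percentile was 35.6 in day 6 and 33.9 in embryonic libraries, against 49.0 and 48.8 over all genes. In day 6 libraries 28 of the 38 genes lay below a mean percentile of 50, and in embryonic libraries 27 did. With peaks at other genes left out of every window, the medians of the 38 genes were 46.6 in day 6 and 51.1 in embryonic libraries.

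**Figure D1:**
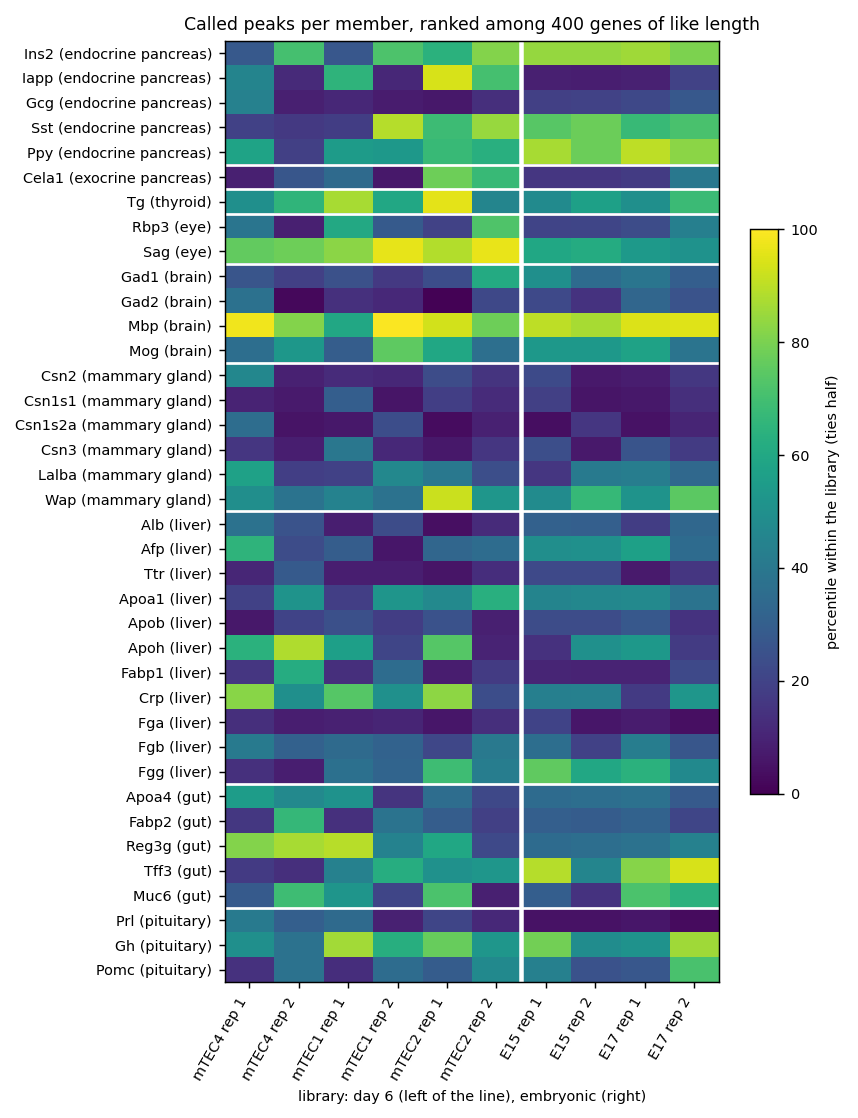
Percentile of the number of called peaks of each of the 38 genes (rows, by tissue) among the 400 genes nearest in span length, in each library (columns), with the 6 day 6 libraries left of the white line and the 4 embryonic libraries right of it. Mbp and Sag lie above 50 in every library, while the caseins Csn2, Csn1s1, Csn1s2a and Csn3 stand low, as does the fibrinogen chain Fga, which had means of 10.1 at day 6 and 9.53 in embryonic libraries.

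Between ages, the count of peaks was lower in day 6 libraries for 3 of the 38 genes, Ins2, Ppy and Gad1, and higher for none, by an exact two-sided permutation test over the 210 ways to choose 4 of 10 libraries with Benjamini-Hochberg adjustment over 21026 genes. Across all genes tested the same rule called 13.5% lower and 0.119% higher, so 3 of 38 is no larger a share than the background. Mean counts were lower in day 6 for 32 of the 38 genes, higher for 5 and equal for 1, whatever the test, while 75.1% of all genes had lower means. The counts are not corrected for list length. Among strong peaks alone the rule called 70.4% of the 18101 genes that had one and 16 of the 29 among the 38 that had one. In lists shortened to equal length, and with any 1 library but mTEC2 replicate 1 left out, the count of called genes was 0, for the 38 and for all genes, with 691 and 2599 genes at an unadjusted p under 0.05 in the 2 shortened sets of lists and 5596 to 8204 with a library left out. By percentile, which is set within each library, no gene passed the same exact permutation test after Benjamini-Hochberg adjustment (0 of 21026, smallest adjusted p 0.114). At an unadjusted p under 0.05 the percentile test gave 5072 genes (24.1%) and 4 of the 38: Ppy and Tff3 lower in day 6, Sag and Prl higher. Among strong peaks alone the adjusted percentile test called 12.3% of the 18101 genes and 9 of these 29. In percentile, Sag and Fgb were higher and Sst, Ppy, Tg, Gad1, Mog, Fgg and Tff3 lower in day 6. A higher percentile does not mean more strong peaks. The Sag region chr1:87853103-87853986, at the neighbouring gene Dgkd, reached a −log10 q of 5 in all 10 libraries. The region that Fgb had in all 10 libraries lies at its neighbour Plrg1. Strong peaks numbered 4375 to 14533 in day 6 lists and 42064 to 70243 in embryonic lists, so these lists are not matched in length. In lists cut to the fewest strong peaks in any list, the percentile test called 0 of 11424 genes, with 13 of the 38 tested. With all called peaks, mean percentiles were lower in day 6 for 20 of the 38 genes and higher for 18, against 47.8% of all genes lower.

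Peaks at the gene start were rarer for these genes than for all genes in every library, and the day 6 and embryonic counts met at 7. In the day 6 libraries 1, 2, 3, 6, 7 and 2 of the 38 genes had one, and in the embryonic libraries 13, 11, 7 and 15 did. Over all protein-coding genes the share with a start peak was 44.5% to 61.4% in day 6 and 64.8% to 69.4% in embryonic libraries. No library showed a start peak at 21 of the 38 genes, against 25.8% of all genes, and among these 21 are all 6 mammary genes, both eye genes and Cela1. At the 17 others, Fisher's exact test with Benjamini-Hochberg adjustment over 16243 genes called none between day 6 and embryonic libraries, nor any of the 16243. At an unadjusted p under 0.05 Fisher's test gave 1475 of the 16243 genes (9.08%) and 5 of the 17 tested among the 38. These were Gad1, Gad2, Afp, Apob and Ttr, all with fewer day 6 libraries. Among strong peaks alone the adjusted test called 14.7% of the 13531 genes with a strong start peak and 3 of the 10 such genes among the 38. These were Gad1, Gad2 and Apob, each in all 4 embryonic and no day 6 library. In lists cut to the fewest strong peaks in any list it called 0 of 6485 genes, with 2 of the 38 tested.

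Markers of mesenchyme showed embryonic start peaks as well. Of the 7 marker genes, among them the collagen gene Col1a2 and the growth-factor receptor genes Pdgfra and Pdgfrb, 0, 0, 1, 3, 3 and 1 had a start peak in the day 6 libraries, against 6 in each embryonic library, and Col3a1 had none in any. Their summed peaks were 7 to 18 at day 6 and 24 to 38 in embryonic libraries, with median percentiles of 39.2 at day 6 and 62.5 in embryonic libraries. By the exact permutation test on counts, 2 of the 7 were lower at day 6, Pdgfrb and Col1a2, and none was higher. Of all genes tested, 13.5% were called lower and 0.119% higher, with counts not corrected for list length. Summed peaks at 5 endothelial markers were 12 to 29 at day 6 and 26 to 51 in embryonic libraries, and at 4 erythroid markers 6 to 9 at day 6 and 10 to 13 in embryonic libraries. Sums over all genes were 37522 to 79818 at day 6 and 79045 to 124785 in embryonic libraries. Median percentiles of the endothelial markers were 59.6 at day 6 and 56.7 in embryonic libraries, and 3 of the 5 had a higher mean percentile at day 6. Those of the erythroid markers were 43.3 and 54.9, and 2 of the 4 had a higher mean percentile at day 6. The part of such cells in the embryonic peaks of the 38 genes was not tested.

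**Figure D2:**
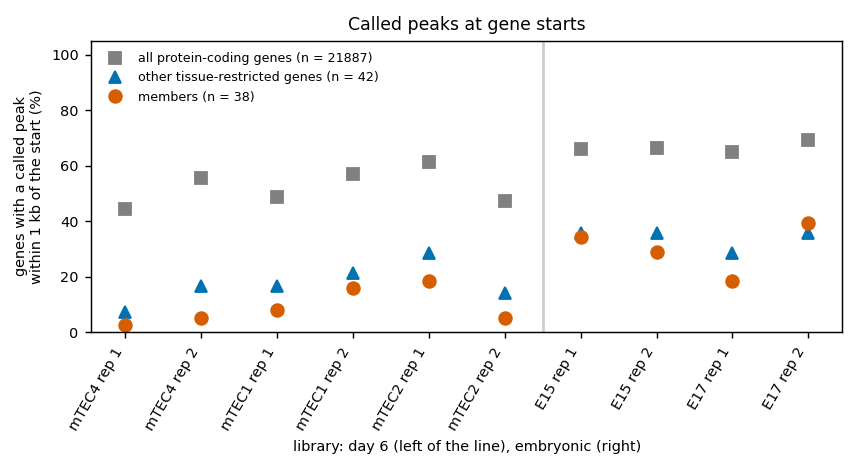
Share of genes (%) with a called peak within 1 kb of the gene start in each library, day 6 left of the line and embryonic right, for the 38 genes (circles), 42 other tissue-restricted genes (triangles) and all protein-coding genes (squares). The 38 genes lie below all genes in each library, from 2.63% in mTEC4 replicate 1 to 39.5% in E17 replicate 2.

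The CpG content of the promoter separates these starts only in part. Of the 26 genes with a CpG ratio under 0.4, 9 had a start peak in some library, and 39.4% of all genes in that class did. Averaged over these 26 genes, 5.13% of day 6 libraries and 22.1% of embryonic libraries had a start peak, against 15.2% and 25.7% over all genes of the class. Among genes with a ratio over 0.6, start peaks are the rule, with a mean of 83.9% of day 6 and 96.7% of embryonic libraries. Gad1, Pomc and Sst fall in that class with 5.56% of day 6 and 66.7% of embryonic libraries. Gad2 and Gcg lie between 0.4 and 0.6. These are descriptions of few genes, with no test.

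**Figure D3:**
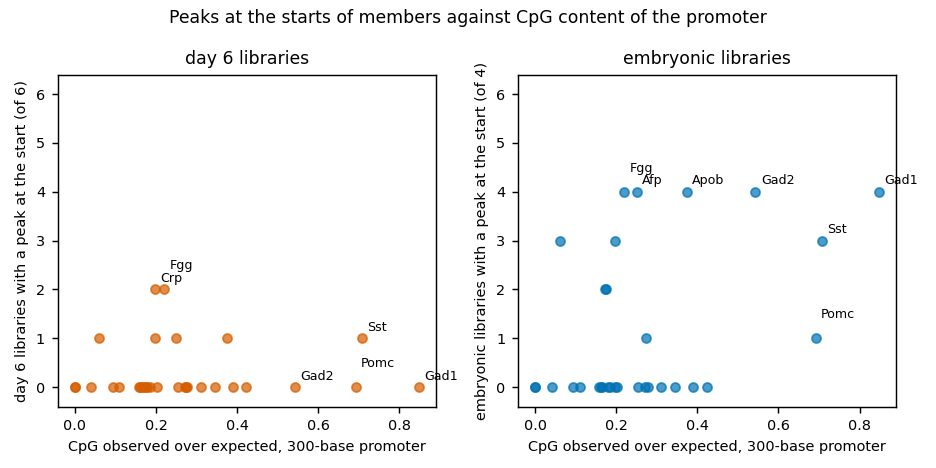
Number of libraries with a called peak at the gene start, against the CpG observed over expected of the 300-base promoter, for the 31 genes with a promoter entry, in 6 day 6 libraries (left) and 4 embryonic libraries (right). Gad1 and Gad2 have 0 day 6 libraries and 4 embryonic libraries, Sst has 1 and 3, and most genes at low CpG content have 0 in both panels.

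Among the hormones of the endocrine pancreas, Ins2 and Ppy had fewer peaks at day 6. Ins2 (chr7:142678656-142679726), which encodes insulin, a beta-cell autoantigen of autoimmune diabetes, had 0, 1, 0, 1, 1 and 1 called peaks in the day 6 libraries, against 2 in each embryonic library. The groups did not overlap, as for 15.9% of all genes. Mean counts were 0.667 ± 0.516 at day 6 and 2 ± 0 in embryonic libraries (SD, n = 6 and 4), with an adjusted p of 0.0349 by the exact permutation test. In lists cut to the length of the shortest, the day 6 minus embryonic difference of Ins2 was -0.25 in place of -1.33, with an adjusted p of 1 by the same exact test, and among strong peaks it was -0.75, with an adjusted p of 0.158. Each of these peaks lay in the flank of Ins2, none at its ends, and the region chr7:142675434-142675926 was called in no day 6 and in all 4 embryonic libraries.

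Ppy (chr11:102099931-102101319), the gene of pancreatic polypeptide, had 1, 0, 1, 1, 2 and 1 called peaks at day 6, against 4, 3, 4 and 4 in embryonic libraries, again with no overlap. Its mean fell to 1 ± 0.632 at day 6, against 3.75 ± 0.5 in embryonic libraries, with an adjusted p of 0.0349 by the exact permutation test. Its percentile averaged 52.5 ± 17.3 at day 6 and 84.2 ± 5.49 in embryonic libraries, a difference of -31.8. The exact permutation test gave an unadjusted p of 0.00476, its smallest possible, and 0.114 after Benjamini-Hochberg adjustment. A region called in no day 6 and all 4 embryonic libraries, chr11:102106996-102107335, lies within the neighbouring gene Pyy, which encodes the related gut hormone peptide YY. By the same exact permutation test, the day 6 minus embryonic difference in the count of Ppy was -2.75, -1.75 without peaks at other genes (adjusted p 0.0592), -0.75 within the span alone (adjusted p 0.115) and -1.5 in lists cut to the length of the shortest (adjusted p 0.310). A start peak was called in 0 day 6 libraries and in 2 embryonic ones.

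The other hormones of the islet differed among themselves. Sst, the gene of somatostatin, had 0, 0, 0, 3, 2 and 2 peaks at day 6, against 3, 3, 2 and 3 in embryonic libraries. The groups overlapped, and the start shown above carried a peak in 1 day 6 and 3 embryonic libraries. Gcg, the glucagon gene, had 1 peak in mTEC4 replicate 1 and 0 in the other day 6 libraries, against 1, 1, 1 and 2 in embryonic libraries. The region chr2:62485054-62485190, which lies 1401 bases before its start, was called in 0 day 6 and all 4 embryonic libraries. Iapp, which encodes the islet amyloid polypeptide co-secreted with insulin, had 1, 0, 2, 0, 5 and 2 peaks at day 6, against 0, 0, 0 and 1 in embryonic libraries. It has the highest of its counts at day 6, but the groups overlap. Every peak in the Iapp window lies in or within 1 kb of the span of Slco1a5, an organic anion transporter gene, so none of them can be assigned to Iapp alone. Over the 5 endocrine genes the median percentile was 49.5 at day 6 and 72.5 in embryonic libraries. The exocrine pancreas has 1 gene, Cela1, an elastase, with 0, 1, 1, 0, 4 and 2 peaks at day 6 and 1, 1, 1 and 3 in embryonic libraries, which overlap.

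Tg (chr15:66670754-66850721) encodes thyroglobulin, the precursor of thyroid hormone and an autoantigen of autoimmune thyroiditis, and its span contains the whole of Sla (chr15:66780819-66831829), the gene of an adaptor protein that dampens antigen-receptor signalling in lymphocytes. The Tg window held 4, 6, 8, 6, 21 and 3 called peaks at day 6, against 10, 11, 8 and 20 in embryonic libraries, and the groups overlapped. Split by place, the ages overlapped at Sla and in the rest of the window. At Sla, meaning its span with 1 kb on each side, there were 2, 3, 4, 3, 14 and 3 peaks at day 6 and 3 in each embryonic library. In the rest of the window there were 2, 3, 4, 3, 7 and 0 at day 6 and 7, 8, 5 and 17 in embryonic libraries. Among the 248 distinct regions in the windows of all 38 genes, the single one called in all 6 day 6 and no embryonic library was chr15:66824733-66824996, inside Sla. This is 0.403% of the 248, against 0.0442% of all regions of the series, or 155. Its fold enrichment, which the authors' peak caller gave relative to its own background within each library, was 3.87, 3.85, 4.39, 3.89, 4.92 and 3.21. A pair of further regions inside Sla, chr15:66789066-66789377 and chr15:66801508-66801823, were called in 4 day 6 and 0 embryonic libraries each. A peak at an end of Tg was called in 1 library, mTEC1 replicate 2.

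Markers of thymocytes and T cells differed among themselves between ages. Of the 9 marker genes, 6 had a higher mean percentile at day 6, with medians of 63.2 at day 6 and 38.2 in embryonic libraries. The summed peaks of the 9 were 11 to 45 at day 6 and 31 to 47 in embryonic libraries, and start peaks were called at 0 to 8 of them at day 6 and at 2 in each embryonic library. Cd3e, Cd3d and Cd8a, which mark T-lineage cells, had start peaks in no embryonic library and in 3, 1 and 2 day 6 libraries. No marker was without a peak in all libraries. The part of such cells in the Sla peaks was not tested.

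**Figure D4:**
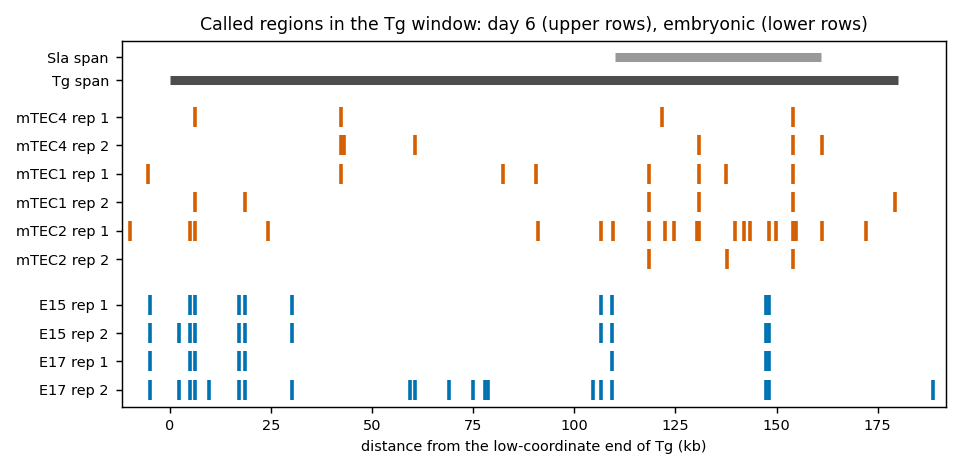
Called peaks in the window of Tg in each library, by distance (kb) from the low-coordinate end of Tg, with the 6 day 6 libraries above the 4 embryonic ones and the spans of Tg and Sla as bars at the top. Each day 6 library has 2 to 14 ticks over Sla or within 1 kb of it and 0 to 7 elsewhere, and each embryonic library has 3 and 5 to 17. Of these 3 embryonic ticks, the one at chr15:66779701-66780255 lies outside the Sla bar.

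Of the eye genes, Sag stood high and Rbp3 low. Sag (chr1:87798143-87845158), which encodes S-arrestin of photoreceptors, the S-antigen of autoimmune uveitis, had 3, 4, 4, 7, 7 and 5 peaks at day 6, against 5, 5, 4 and 6 in embryonic libraries. The mean was 5 at both ages. Its percentile was 75.9, 78.0, 82.6, 96.2, 88.6 and 96.8 at day 6, all above the 59.6, 61.4, 54.0 and 51.1 of embryonic libraries. Such full separation upwards held for 7.05% of all genes. The difference of 29.8 had an unadjusted p of 0.00476 by the exact permutation test and an adjusted p of 0.114, and with 50 kb on each side it became -1.78. One of the peaks, chr1:87853103-87853986, was called in all 10 libraries and overlaps the low end of the neighbouring lipid kinase gene Dgkd. Rbp3, the interphotoreceptor retinoid-binding protein and another uveitis antigen, had 1, 0, 2, 1, 1 and 2 peaks at day 6 and 1, 1, 1 and 3 in embryonic libraries. Neither eye gene had a start peak in any library.

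In the brain set, both glutamate decarboxylases lacked day 6 peaks at their starts. Gad1 (chr2:70561303-70602014) and Gad2 (chr2:22621015-22693877) encode GAD67 and GAD65, which make the transmitter GABA, and GAD65 is an autoantigen of autoimmune diabetes. At Gad2 the region chr2:22622117-22622616, which covers most of the promoter printed above, was called in no day 6 library and in all 4 embryonic libraries, with fold enrichments of 5.44, 5.57, 6.03 and 8.34. Another region of the same kind, chr2:22623020-22623705, begins 693 bases after the start. At Gad1 the region was chr2:70561123-70561269, which ends 860 bases before the start in the promoter table and just before the low end of the RefSeq span, with folds of 5.47, 5.26, 6.35 and 8.65 in the embryonic libraries. A start peak in all 4 embryonic and no day 6 library was found for 2.89% of the genes with any start peak, and for either gene Fisher's exact test gave p = 0.00476 unadjusted and p = 0.165 after Benjamini-Hochberg adjustment.

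The window of Gad1 held 1, 1, 1, 1, 2 and 2 peaks at day 6, against 4, 3, 3 and 4 in embryonic libraries, with no overlap. Its mean fell to 1.33 ± 0.516 at day 6, against 3.50 ± 0.577 in embryonic libraries (exact permutation test, adjusted p 0.0349), but its percentile of 28.6 ± 16.4 at day 6 and 38.3 ± 8.47 in embryonic libraries overlapped. Within the span alone, the difference in its count was -0.333, with an adjusted p of 0.698 by the same exact permutation test. Gad2 had 2, 0, 1, 1, 0 and 1 peaks at day 6, against 3, 2, 3 and 5 in embryonic libraries, and its adjusted p was 0.0504 by the same exact test. Both genes rank low for their length, Gad2 lowest of the 4 brain genes.

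Mbp, the gene of myelin basic protein, ranked highest of the 38 genes by percentile averaged over the 10 libraries, at 84.9 ± 15.0 at day 6 and 91.7 ± 3.88 in embryonic libraries. It held 8, 6, 4, 13, 13 and 4 peaks at day 6 and 15, 13, 15 and 22 in embryonic libraries, with an adjusted p of 0.0700 by the exact permutation test. One end of its span carried a peak in all 10 libraries, which 49.5% of genes with any start peak did. Mog, the myelin oligodendrocyte glycoprotein gene, had 1, 2, 1, 3, 3 and 1 peaks at day 6 and 3 in each embryonic library. A region 5184 bases before its start, chr17:37028582-37029074, was called in all 10 libraries, and one 985 bases before it, chr17:37024383-37024634, in 0 day 6 and 4 embryonic libraries.

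**Figure D5:**
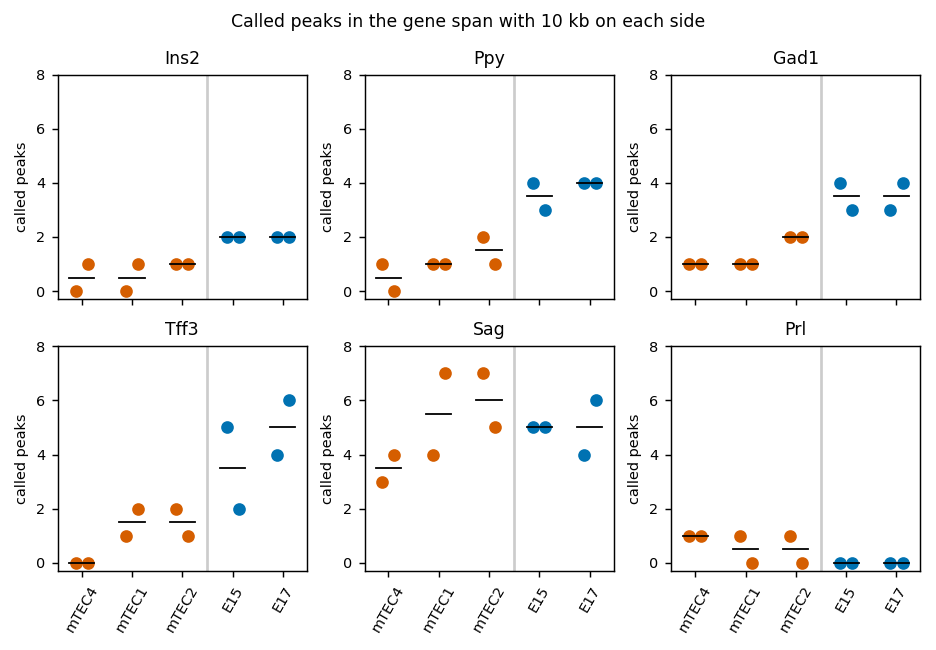
Called peaks in the window of Ins2, Ppy, Gad1, Tff3, Sag and Prl in each library (points), by group, with the 3 day 6 groups left of the line, the 2 embryonic groups right of it and bars at the mean of each group of 2. Ins2, Ppy and Gad1 have no day 6 value at or above an embryonic one, Sag overlaps with a mean of 5 at both ages, and Prl has 0 peaks in every embryonic library.

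The milk protein genes of the mammary gland ranked lowest for their length, with a median percentile of 17.8 at day 6 and 16.0 in embryonic libraries. Csn2, Csn1s1, Csn1s2a and Csn3, which encode the caseins, lie near each other on chromosome 5, and each had 0 or 1 called peak in every library. Their mean percentiles were 13.9 to 19.5 at day 6 and 8.72 to 18.7 in embryonic libraries. Csn1s2a (chr5:87774450-87788798) was lowest averaged over the 10 libraries, at 13.9 ± 13.0 at day 6 and 8.72 ± 5.61 in embryonic libraries. The start of Csn1s1 printed above, with no CpG, had a peak in no library. Lalba, which encodes alpha-lactalbumin, also had 0 or 1 peak everywhere. Wap, the whey acidic protein gene (chr11:6635483-6638654), was highest of the 6, with 1, 1, 1, 1, 4 and 1 peaks at day 6 and 2, 3, 2 and 4 in embryonic libraries. The peak it had in all 10 libraries, chr11:6625757-6626374, lies at an end of Tbrg4, a gene of mitochondrial RNA processing. None of the 6 passed either exact permutation test, and the smallest unadjusted p was 0.190, for the count of Csn3.

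The 11 liver genes had a median percentile of 32.0 at day 6 and 31.2 in embryonic libraries, and with all called peaks none passed a test after adjustment. The 3 chains of fibrinogen, the clotting protein, are encoded side by side on chromosome 3 but differed. Fga (chr3:83026153-83033627) had the lowest percentile of all 38 genes averaged over the 10 libraries, with no peak in any day 6 library and 1 in E15 replicate 1 alone. Fgb had exactly 1 peak in every day 6 library and 2, 1, 2 and 2 in embryonic libraries, and the peak shared by all 10 libraries, chr3:83055217-83055950, overlaps the low end of the splicing-factor gene Plrg1. Fgg had 0, 0, 1, 1, 3 and 1 peaks at day 6 and 4, 3, 3 and 3 in embryonic libraries, which met at 3 and gave an adjusted p of 0.0950 by the exact permutation test. The region chr3:83007546-83007953, which overlaps its printed promoter, was called in 2 day 6 libraries, mTEC1 replicate 1 and mTEC2 replicate 1, and in all 4 embryonic ones.

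The albumin-family genes Alb and Afp are neighbours on chromosome 5, and Afp is the fetal form. Alb had 1, 1, 0, 1, 0 and 0 peaks at day 6, against 2, 2, 1 and 3 in embryonic libraries, none at its start. Afp had 2, 1, 1, 0, 2 and 1 at day 6, against 3 in each embryonic library, and those groups did not overlap, with an adjusted p of 0.0504 by the exact permutation test. Its start carried a peak in 1 day 6 and 4 embryonic libraries, as did that of Apob, the protein of low-density lipoprotein, with 0, 1, 1, 1, 2 and 0 peaks at day 6 and 2 in each embryonic library. At Alb the ages met at 1, and at Apob they met at 2. Ttr, which carries thyroid hormone and retinol in serum, had a start peak in 0 day 6 and 3 embryonic libraries. Crp (chr1:172698056-172699966), an acute-phase protein, had the highest percentile of the liver genes at day 6, with 2, 1, 2, 1, 3 and 0 peaks at day 6 and 1, 1, 0 and 2 in embryonic libraries, and its start carried a peak in 2 day 6 and 3 embryonic libraries. Apoa1, of high-density lipoprotein, had at most 1 peak in any library. Apoh had 2, 4, 2, 1, 4 and 0 at day 6 and 1, 3, 3 and 2 in embryonic libraries, and the fatty-acid carrier Fabp1 had 0, 2, 0, 1, 0 and 0 at day 6 and 1 in E17 replicate 2 alone among embryonic libraries.

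Among gut genes, with all called peaks, the mean percentile at day 6 was lower for Tff3 and higher for Reg3g. Both overlapped between ages, and neither passed the threshold after adjustment. Among strong peaks alone, whose lists are not matched in length, the percentile difference of Tff3 was -38.8. Its adjusted p was 0.0388 by the exact permutation test. Tff3 (chr17:31125306-31129611), a trefoil peptide of goblet cells, had 0, 0, 1, 2, 2 and 1 peaks at day 6, against 5, 2, 4 and 6 in embryonic libraries, meeting at 2. Its percentile was 40.0 ± 20 at day 6 and 77.6 ± 21.8 in embryonic libraries, with an unadjusted p of 0.0429 and an adjusted p of 0.190 by the exact permutation test. All 6 of its regions lay in the flanks, and a pair of them at the lipid transporter gene Abcg1. Reg3g (chr6:78466269-78468874), an antimicrobial lectin, had 2, 3, 3, 1, 2 and 0 peaks at day 6 and 1, 1, 1 and 2 in embryonic libraries, with percentiles of 63.9 ± 27.0 at day 6 and 38.2 ± 4 in embryonic libraries and an unadjusted p of 0.1 by the exact permutation test. The region on its printed promoter, chr6:78468867-78469088, nevertheless had 1 day 6 and 3 embryonic libraries. Fabp2 (chr3:122895072-122899506), the intestinal fatty-acid carrier and lowest gut gene, had 0, 2, 0, 1, 1 and 0 peaks at day 6 and 1 in each embryonic library. Muc6, a gastric mucin, had 1, 3, 2, 1, 4 and 0 at day 6 and 2, 1, 4 and 5 in embryonic libraries. Apoa4, an apolipoprotein of the intestine, had 0 or 1 in every library.

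The pituitary hormones held the one gene with peaks at day 6 alone. Prl, the prolactin gene (chr13:27057570-27065204), had 1, 1, 1, 0, 1 and 0 peaks at day 6 and 0 in all 4 embryonic libraries, and its counts overlapped at 0. Its percentile was 24.5 ± 12.9 at day 6 and 4.62 ± 1.23 in embryonic libraries, with an unadjusted p of 0.0190 and an adjusted p of 0.142 by the exact permutation test. The 4 peaks fell in 3 different regions, the nearest 6637 bases before the start, and at most 2 libraries shared one. Gh (chr11:106300261-106303703), growth hormone, was highest, with 1, 1, 3, 2, 3 and 1 peaks at day 6 and 4, 2, 2 and 5 in embryonic libraries. A peak in its span within 1 kb of an end, chr11:106302561-106302924, was called in 5 day 6 and 4 embryonic libraries, and the B-cell receptor gene Cd79b (chr11:106311341-106314562) lies in the same window. Pomc, the precursor of corticotropin, had 0, 1, 0, 1, 1 and 1 peaks at day 6 and 2, 1, 1 and 4 in embryonic libraries, and despite 18 CpG its start carried a peak in 1 library, E17 replicate 2.

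Many regions in the windows of the 38 genes were called in a single library. Of the 248 distinct regions, 120 (48.4%) were called in 1 library, 5 (2.02%) in all 10, and 16 (6.45%) in all 4 embryonic and no day 6 library, against 55.1%, 2.75% and 4.30% of the 350685 regions of the whole series. In at least 1 day 6 and no embryonic library there were 115 (46.4%, against 51.0% of all regions), and 22 of these had at least 2 day 6 libraries. Of the 248, 46 (18.5%) lay over or within 1 kb of another protein-coding gene. The median width was 142.5 bp, against 154 bp for all regions.

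Within day 6 the fractions did not order the 38 genes alike. With 2 libraries each, no fraction can reach a p of 0.05 against the other 4, the smallest being 0.0667, so these are descriptions. Iapp and Cela1 were highest in mTEC2, with mean percentiles of 82.2 and 72.6, against 28.4 and 17.8 in mTEC4 and 38 and 20.5 in mTEC1. Reg3g ran the other way, with 84.1 in mTEC4, 66.9 in mTEC1 and 40.8 in mTEC2. Prl had 35.6, 21.8 and 16.2 in the same order, and Sst 17.9, 53.5 and 76.4. The libraries within a fraction differed widely, as for Sst with 18.2 and 88.8 in mTEC1.

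With all called peaks, other tissue-restricted genes also ranked low for their length, and the regulators of self-antigen expression did not. Medians without peaks at other genes, 46.6 at day 6 and 51.1 in embryonic libraries for the 38 genes, were not computed for these lists. The 42 further genes, such as Cel and Tshb, had median percentiles of 37.5 at day 6 and 36.4 in embryonic libraries, and start peaks at 3 to 12 of them in day 6 and 12 to 15 in embryonic libraries. By the exact permutation test on counts, 1 was lower at day 6 (Btn1a1, a milk-fat protein) and none was higher, against 13.5% and 0.119% of all genes tested. The 16 regulators had medians of 64.4 at day 6 and 51.5 in embryonic libraries. At least 15 of the 16, Aire and the chromatin remodeller Chd4 among them, had a start peak in every library. Fezf2 was the exception, with a start peak in 0 day 6 libraries and in 2 embryonic ones. Of the 16 regulators, 1 had a lower count at day 6, Atf7ip, a partner of the methylated-DNA reader Mbd1, and none was higher, against the same shares of all genes. Of 6 macrophage and dendritic cell markers, all had a higher mean percentile at day 6, with medians of 50.3 at day 6 and 16.7 in embryonic libraries and summed peaks of 12 to 18 at day 6 and 11 to 19 in embryonic libraries. Start peaks were called at 1, 1, 0, 1, 2 and 0 of the 6 in the day 6 libraries and at 1 in each embryonic library. In all, 2 of the 6 had a start peak in some library, against 74.2% of all genes. Adgre1, a macrophage marker, was among those with none. Whether such cells bear on the peaks of the 38 genes was not tested.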

How the data were processed

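Nucleosome-free chromatin, per the labels, was profiled in 10 libraries, grouped by their titles. The tools named per the submitters' processing notes, with no versions or order, are MACS2, Picard, Bowtie2 and cutadapt, and the build is mm10. A shift of reads for the transposase was not given in the sources used here. For each library the authors deposited a separate broad peak list, with no pooling of replicates. Each deposited peak has a score (10 times the −log10 q with decimals dropped, not used here), a fold enrichment, which is a ratio to the caller's background in that library, and a −log10 p and −log10 q from the authors' caller, with −log10 q never below 1.0002. These values served only to describe or filter peaks within a list. The lists hold no read counts, so no counting interval is given.

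Spans of 21887 protein-coding genes came from a RefSeq table of GRCm38.p6, and gene starts from its promoter table. A peak counted in a window with an overlap of 1 bp or more. Peaks were merged into regions over the 10 lists where they overlapped or touched. Counts and percentiles were compared between 6 day 6 and 4 embryonic libraries by exact two-sided permutation, and start peaks by Fisher's exact test, each with Benjamini-Hochberg adjustment over all genes with a peak in at least 1 library and a threshold of 0.05. Python 3.11.15, numpy 2.4.6, pandas 2.3.3 and scipy 1.17.1 were used, and the scripts were tested on simulated data. Members and lists were chosen with earlier results of these data known, so lists are described by counts and medians with no test. All 38 genes may be named. Those given in full are, per tissue, the genes past a per-gene test, those with a start peak in at least 8 libraries, and those with the highest and lowest mean percentile.

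Alternatives were other windows, merged regions, at least 50% overlap of the peak, lists of equal length, stronger peaks, peaks at other genes left out, other tie and like-length rules, a replicate block and each library left out. Same-numbered libraries did not deviate together (correlations of -0.132 to 0.164 over 10 pairs of groups), so replicate numbers were not used as pairs.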

Additional observations from a re-analysis of the deposited data

Results flagged for a closer look

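For the percentile of each gene, and for the median percentile, the sum of peaks and the number of start peaks over the 38 genes, the highest and lowest library of each age were compared with the rest of that age by Dixon's test. Of 82 sets examined, 11 had a library far from the others. The nominal rate of 1 in 20 is not a measure of chance here, since these percentiles move in steps of small counts. Iapp, Gcg, Csn3, Ttr and Fabp1 were flagged for 1 peak against 0 in the other libraries of that age. In 4 of the 11 sets the library was E17 replicate 2, the longest list. Iapp had a percentile of 19.75 there, against 8.5 to 9 in the other embryonic libraries, and Cela1 had 40.0 against 15.9 to 17.3. Rbp3 had 43.125 in that library, against 20.6 to 23.1 in the others, and Fabp1 had 22.25 against 10 to 10.5.

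Among day 6 libraries, mTEC4 replicate 1 was high for Gcg, at 44.0 against 6.25 to 13.6 in the other 5. In mTEC4 replicate 2 Ppy was low, at 18.75 against 53.1 to 67.3, and Ttr was high, at 28.5 against 5.75 to 13. Csn3 was high in mTEC1 replicate 1, at 39.75 against 6.25 to 15.6. In mTEC2 replicate 1 Wap stood at 92.125, against 37.6 to 52.6, and the sum of peaks over the 38 genes was 99, against 34 to 56. Gad1 was high in mTEC2 replicate 2, at 61.125 against 16.6 to 26.5 in the other day 6 libraries, though it had 2 peaks in both mTEC2 libraries.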

How the results depend on the processing

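Counts of peaks are not corrected for list length. The exact permutation test on counts called 2869 genes and 3 of the 38. It called 8344 and 15 with 50 kb on each side, 12739 and 16 for strong peaks (−log10 q of 5 or more), and 4033 and 5 for merged regions. It called 0 and 0 with lists cut to the shortest list or to the fewest strong peaks, under a replicate block (permuting within replicate number, smallest adjusted p 0.0637, 7106 genes at an unadjusted p under 0.05), and without mTEC2 replicate 2 and E17 replicate 2 together, a setting added after seeing the data. Leaving out each library gave 0 to 4988 genes and 0 to 6 of the 38, the upper values without mTEC2 replicate 1 and 0 without any other. Leaving out libraries or permuting within replicate number raises the smallest p, so the zeros of those settings do not show a weaker effect. Lists of equal length keep all 10 libraries, and at the shortest length the differences of Ins2, Ppy and Gad1 were smaller, at -0.25, -1.5 and -1.67. With strong peaks, percentiles called 2220 genes and 9 of the 38. In percentile, Sag and Fgb were higher and Sst, Ppy, Tg, Gad1, Mog, Fgg and Tff3 lower at day 6. The Sag region that was strong in all 10 libraries lies at the neighbouring gene Dgkd. With the same strong peaks, starts called 1994 genes and 3 of the 38 (Gad1, Gad2 and Apob). In every other setting run, lists cut to the fewest strong peaks among them, percentiles and starts called 0. The median percentile of the 38 genes was 30.7 at day 6 and 38.6 in embryonic libraries with 50 kb, 46.6 and 51.1 without peaks at other genes, and 21.6 and 25.8 counting only genes with fewer peaks. In embryonic libraries it was 39.95 in lists cut to the fewest strong peaks. Leaving out each library gave 32.4 to 36.9 at day 6 and 32.3 to 36.1 in embryonic libraries, the upper embryonic value without E15 replicate 1. The percentile difference of Sag reversed to -1.78 with 50 kb. The causes were not tested.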
